A study of Mus musculus with 4 samples.

Results

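Xcl1, Fasl, Cst7 and Runx3 are 4 genes of cytotoxic lymphocytes, taken by symbol from a single-cell count table of immune cells from mouse breast tumours. They are 4 of the 4099 genes with a complete row in the count table as used here, which runs over chromosomes 1 to 5 and ends within chromosome 5. The tumours grew from 4T1, a mouse mammary carcinoma line, either depleted of Mif, which encodes the cytokine macrophage migration inhibitory factor, or wild-type, in BALB/c mice. CD45-positive cells that excluded propidium iodide, a dye that enters dead cells, were sorted and sequenced with the 10x Genomics droplet method. The labels name 4 libraries, sgMif1 and sgMIif2 from Mif-depleted tumours and CON1 and CON2 from wild-type tumours, and each combined 3 tumours, so single animals cannot be told apart. The sources used here do not say how Mif was depleted, whether the depleted line was 1 clone or how old the mice were.

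A cytotoxic lymphocyte carries granules of perforin and granzymes, displays death ligands on its surface and secretes cytokines and chemokines. Natural killer cells recognise stressed or tumour cells through activating receptors, and CD8 T cells through their antigen receptor; long exposure to antigen leaves CD8 T cells in a state called exhaustion. Xcl1 encodes lymphotactin, a chemokine whose receptor Xcr1 marks type 1 conventional dendritic cells. Fasl encodes Fas ligand, which starts caspase-driven death in cells that carry Fas. Cst7 encodes cystatin F, an inhibitor of the cathepsins that activate granzymes. Runx3 encodes a transcription factor of the Runt family, which is needed for CD8 T cell identity and also acts in natural killer cells, dendritic cells and other leukocytes.

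Each barcode ends in a suffix, 1 to 4, and no label or header ties a suffix to a library. The suffixes were therefore put in no group, Mif-depleted and wild-type tumours were not compared, Mif itself was not analysed here, and the values below are given for suffix 1 and suffix 2 side by side. In suffix 1, 13162 of 13162 annotated cells had counts, with a median of 1224.5 counted UMIs (unique molecular identifiers, one per captured transcript). In suffix 2, 3221 of 11961 annotated cells, or 26.9%, had counts, with a median of 1712 UMIs. Pairs of suffixes shared between 24 and 42 barcode sequences. Levels are UMIs per 10000 counted UMIs, summed over the cells of a name, with exact Poisson 95% intervals that cover counting error only. Cell type names are the authors' and are read here in their usual sense, and Mono_Itgal, with 5 cells in suffix 2, is left out there. The authors may have used genes described here to name the cells, so levels by name are a description and carry no test.

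Cells named NK_cell (natural killer) numbered 58 in suffix 1 and 53 in suffix 2. Cells named CD8_Tex (exhausted CD8 T) numbered 527 and 267. Among the marker genes listed for natural killer cells, 4 of 11 were measured: Xcl1 itself, Cd160, Cd244a and Il18rap, and none of the 4 was at 0 in NK_cell. Their summed level was 105 in NK_cell of suffix 1, against 2.54 in all other cells, and 129 in suffix 2, against 2.18. Most of that sum was Xcl1, and without it the other 3 markers summed to 18.1 and 19.5 in NK_cell, against 1.84 and 1.34. T cell markers were also present in NK_cell. Of 10 such markers 6 were measured, and they summed to 37.9 and 40.5 UMIs per 10000 in NK_cell, against 7.32 and 10.6 in all other cells. In CD8_Tex the same 6 markers summed to 32.6 and 48. Among them, Cd28, a costimulatory receptor best known from T cells, stood at 10.6 and 9.16 in NK_cell and at 4.57 and 6.65 in CD8_Tex. Lck stood at 10.6 and 11.1 in NK_cell and at 4.29 and 7.07 in CD8_Tex. Cd2 stood at 10.6 and 13.3 in NK_cell and at 5.16 and 7.87 in CD8_Tex. Cd247 changed order between suffixes, with 2.17 and 2.41 in NK_cell and 1.75 and 3.85 in CD8_Tex. Ctla4 and Icos, receptors of activated T cells, went the other way: Ctla4 stood at 2.17 and 2.89 in NK_cell and at 11.6 and 14 in CD8_Tex, and Icos at 1.58 and 1.69 in NK_cell and at 5.27 and 8.56 in CD8_Tex. None of the 3 CD8 T cell markers (Cd8a, Cd8b1 and Gzmk) was among the genes analysed here, so the CD8 part of that name was not checked.

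The name cDC1_Clec9a is used below as the authors gave it, although some of its genes go against its usual sense. Batf3, a factor needed by type 1 conventional dendritic cells, stood at 0.965 and 0.385 UMIs per 10000 in cDC1_Clec9a, against 9.02 and 6.28 in cDC1_Ccl22. In all cells outside cDC1_Clec9a it stood at 0.317 and 0.322, so the level was low beside cDC1_Ccl22 but not beside all other cells. Ctsk, which encodes the bone-degrading protease cathepsin K, stood at 513 and 707 in cDC1_Clec9a, against 5.26 and 11.6 in all other cells. Mmp9, a matrix metalloproteinase, stood at 294 and 406, against 11.9 and 11.3, and Ocstamp, a gene of osteoclast fusion, at 13 and 17.1, against 0.385 and 0.525. These genes were chosen after their values were seen.

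All 4 genes are protein coding. In GENCODE M21 on GRCm38, Xcl1 lies at chr1:164931644-164935527 and Fasl at chr1:161780689-161788495, both on the minus strand. Cst7 lies at chr2:150570415-150578944 and Runx3 at chr4:135120652-135177990, both on the plus strand. The 250 bases before the start that RefSeq gives each gene on GRCm38.p6 are shown because Runx3 is itself a member and RUNX proteins bind the letters TGTGGT. Those letters are in capitals on either strand, as is GGTGTGA, a T-box motif, in Xcl1. The windows are chr1:164935523-164935772 for Xcl1, chr1:161788496-161788745 for Fasl, chr2:150570165-150570414 for Cst7 and chr4:135120395-135120644 for Runx3, each written 5′ to 3′ on its gene's strand.
Xcl1: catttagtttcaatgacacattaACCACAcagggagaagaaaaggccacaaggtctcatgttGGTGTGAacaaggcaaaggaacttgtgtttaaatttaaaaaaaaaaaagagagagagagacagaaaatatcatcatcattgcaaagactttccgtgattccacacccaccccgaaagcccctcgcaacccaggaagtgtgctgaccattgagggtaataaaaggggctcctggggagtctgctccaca
Fasl: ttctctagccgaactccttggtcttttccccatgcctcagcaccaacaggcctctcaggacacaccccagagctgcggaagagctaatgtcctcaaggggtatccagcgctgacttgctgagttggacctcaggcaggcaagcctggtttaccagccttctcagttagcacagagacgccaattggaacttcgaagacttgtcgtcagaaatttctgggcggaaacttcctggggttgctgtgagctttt
Cst7: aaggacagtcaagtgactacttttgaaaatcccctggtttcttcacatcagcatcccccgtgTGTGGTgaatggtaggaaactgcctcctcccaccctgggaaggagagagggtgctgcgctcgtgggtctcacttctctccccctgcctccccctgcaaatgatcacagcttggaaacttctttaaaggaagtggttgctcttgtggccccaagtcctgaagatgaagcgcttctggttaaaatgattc
Runx3: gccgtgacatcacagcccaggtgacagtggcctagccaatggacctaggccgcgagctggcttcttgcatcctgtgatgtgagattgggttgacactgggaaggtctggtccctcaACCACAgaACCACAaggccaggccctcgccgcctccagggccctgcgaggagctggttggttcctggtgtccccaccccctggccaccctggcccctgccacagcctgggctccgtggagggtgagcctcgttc

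The Xcl1 window held 1 match to TGTGGT, on the opposite strand (read as ACCACA) 227 bases before the start, and 1 match to GGTGTGA 188 bases before it. Cst7 held 1 match to TGTGGT, 188 bases before the start. The Runx3 window held 2, on the opposite strand, 134 and 126 bases before the start, and its second RefSeq window, at chr4:135152295-135152544, held 0. Fasl held 0. Over all 32851 windows of the same length, 14% held TGTGGT and 3.33% held GGTGTGA. The related letters TGCGGT were in none of the 5 member windows and in 5.10% of all. The motifs were chosen after the sequences were seen, and a match is a description of letters, not of a bound site.

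Xcl1 had its highest level in NK_cell, in both suffixes. It stood at 86.8 UMIs per 10000 (95% interval 78.8 to 95.3) in NK_cell of suffix 1 and at 109 (99.4 to 120) in suffix 2. CD8_Tex came next, with 7.65 (7.28 to 8.02) in suffix 1 and 6.02 (5.49 to 6.59) in suffix 2. The intervals of NK_cell and CD8_Tex did not overlap in either suffix. NK_cell over CD8_Tex was a log2 ratio of 3.50 (3.35 to 3.66) in suffix 1 and 4.18 (3.99 to 4.37) in suffix 2. NK_cell made up 0.441% of the cells with counts in suffix 1 and gave 17.5% of the Xcl1 UMIs; in suffix 2 it made up 1.65% of the cells and gave 38.8%. CD8_Tex gave 65.6% of the Xcl1 UMIs in suffix 1, from 4.00% of the cells, and 40.8% in suffix 2, from 8.29%.

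Against all other cells of suffix 1, Xcl1 in NK_cell had a log2 ratio of 6.94 (6.79 to 7.09), with 86.8 in NK_cell and 0.705 in the other cells. It was the highest ratio of 3514 genes with 50 or more UMIs, and with 7.03 it was again the highest of 3087 such genes in suffix 2. All 4 members were over 2-fold higher in NK_cell than in the other cells, in both suffixes. Of all genes measured, 25.9% were over 2-fold higher in NK_cell in suffix 1 and 22.1% in suffix 2. A ratio past 2-fold was thus frequent in NK_cell, and the reasons for it were not separated. After Xcl1, the next 4 genes by ratio in suffix 1 were Cited4, a transcriptional coactivator, with 6.91, Nrarp, a regulator of Notch signalling, with 6.26, Cd160, a receptor of natural killer and T cells, with 5.94, and Qrfp, a neuropeptide precursor, with 5.82. In suffix 2 these were 5.94, 6.35, 5.18 and 5.06.

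**Figure D1:**
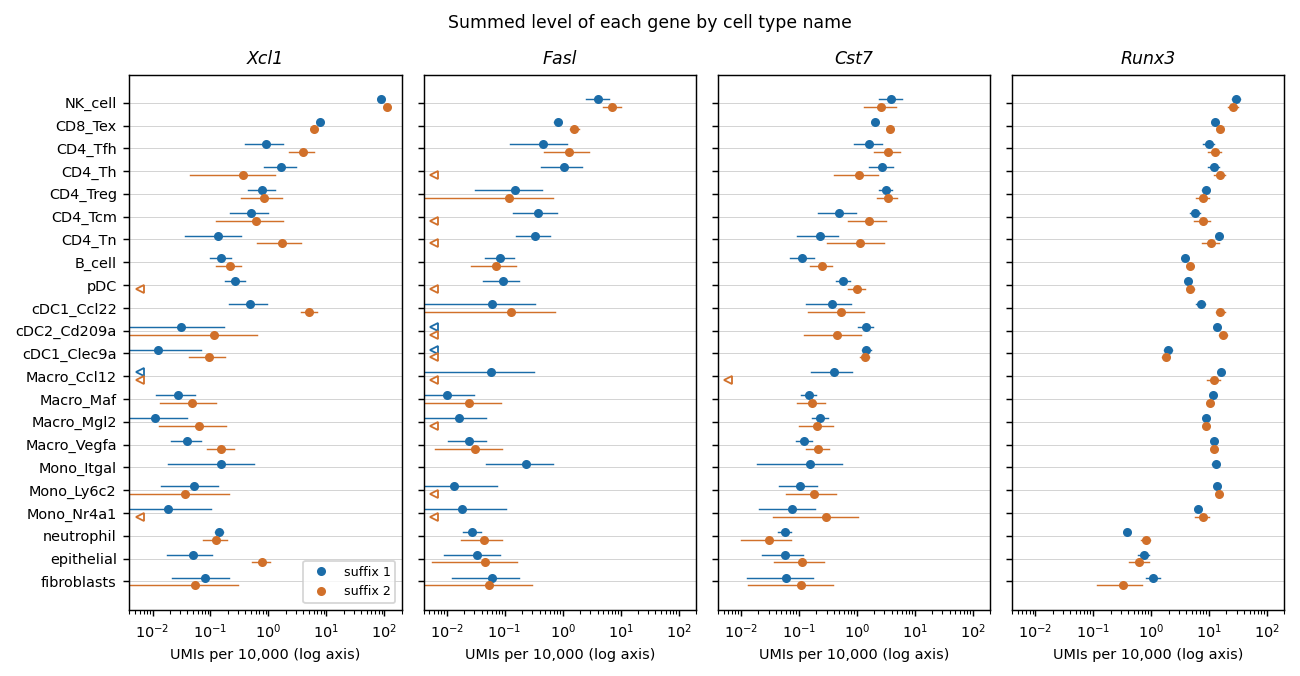
Level of Xcl1, Fasl, Cst7 and Runx3 in UMIs per 10000 (log axis) by cell type name, in suffix 1 and suffix 2, with exact Poisson 95% intervals; open triangles mark 0 UMIs, names with under 20 cells in a suffix are left out, and intervals that reach the left edge go on below it. NK_cell has the highest Xcl1 level in both suffixes, 86.8 and 109, while Runx3 stays above 5 in CD4, macrophage and monocyte names too.

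In the other names described here, Xcl1 was lower and its level often rested on few cells. In the 5 CD4 names it ran between 0.133 in CD4_Tn (naive) and 1.65 in CD4_Th (helper) in suffix 1, and between 0.362 in CD4_Th and 3.90 in CD4_Tfh (follicular helper) in suffix 2. Neighbouring CD4 names overlapped in their intervals. In the macrophage and monocyte names described here it ran between 0 and 0.153 in suffix 1 and between 0 and 0.154 in suffix 2. In cells named cDC1_Clec9a it stood at 0.0122 and 0.0937. A level of 5.10 in cDC1_Ccl22 of suffix 2 came from 39 UMIs in 1 cell of 39, and one of 0.760 in epithelial cells from 33 UMIs, of which 32 were in 1 cell. Those 2 names stood at 0.488 and 0.0493 in suffix 1. CD8_Tex over all CD4 names was a log2 ratio of 3.74 (3.32 to 4.19) in suffix 1 and 2.17 (1.68 to 2.70) in suffix 2.

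Within NK_cell and CD8_Tex, Xcl1 was uneven. An Xcl1 UMI was present in 29 of 58 NK_cell cells (50%) in suffix 1 and in 32 of 53 (60.4%) in suffix 2. In CD8_Tex it was present in 109 of 527 (20.7%) and in 50 of 267 (18.7%). In neutrophils, where the gene is not expected, the share was 0.980% in suffix 1 and 1.30% in suffix 2, with median depths of 1120 and 976 UMIs against 682 and 655 in NK_cell. With each cell thinned to 500 UMIs, 52.4% of 42 NK_cell cells and 14.1% of 498 CD8_Tex cells of suffix 1 kept an Xcl1 UMI, against 0.449% of 5126 neutrophils. In suffix 2 the thinned shares were 70.6% of 34, 12.2% of 263 and 0.128% of 781. The shares thus kept the order of the levels at matched depth.

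A small part of the cells carried most of the Xcl1 transcripts. In NK_cell, 12 cells with 10 or more UMIs held 85.5% of the Xcl1 UMIs in suffix 1, and 12 cells held 84.3% in suffix 2. The highest single cells had 99 and 89 UMIs. In CD8_Tex, 35 of 527 cells held 85.0% in suffix 1 and 13 of 267 held 76.1% in suffix 2, with 280 and 116 UMIs in the highest cells. The median over cells with a UMI was 8 and 7 in NK_cell and 5 and 4 in CD8_Tex. Without its highest cell, the level in NK_cell was 71.4 in suffix 1 and 90.4 in suffix 2, and that in CD8_Tex 6.36 and 4.57.

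**Figure D2:**
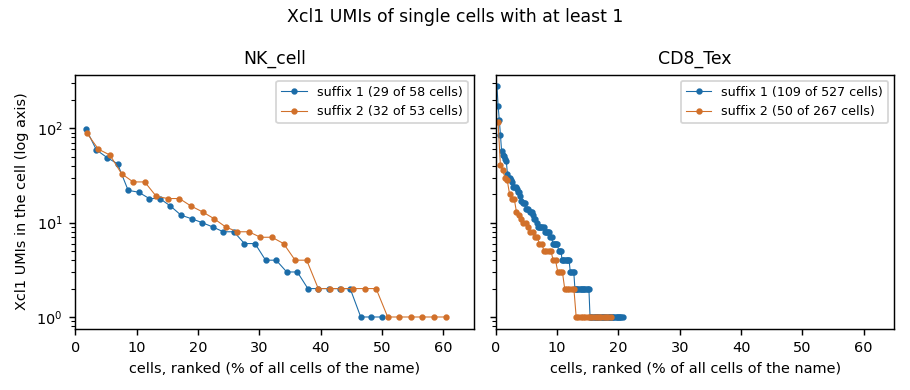
Xcl1 UMIs in each cell with at least 1 (log axis), ranked and placed by the percentage of all cells of the name, for NK_cell (left) and CD8_Tex (right) in suffix 1 and suffix 2. The curve of CD8_Tex starts higher, at 280 UMIs in suffix 1, and ends at 20.7% of the cells, against 50% for NK_cell.

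Cells of other names with 5 or more Xcl1 UMIs numbered 16 of 12577 in suffix 1 and 11 of 2901 in suffix 2. Of the 16, 14 (87.5%) also had a UMI of Cd247, Cd2 or Lck, genes of T and natural killer cell signalling and adhesion, against 18.3% of the cells of those names without Xcl1. In suffix 2 it was 9 of 11 (81.8%), against 21.4%. The cells without Xcl1 were not matched by name, and some Xcl1-high cells lay in names where such a UMI is frequent. In suffix 1, 1 was in CD4_Th, 1 in CD4_Treg and 2 in B_cell. Of the cells without Xcl1 in these names, 69.8%, 96.8% and 35.4% had such a UMI. The part of the mix of names was not tested. The Xcl1-high cells were deeper, with median UMIs of 3855 and 3397, against 1178.5 and 1705 in the cells without Xcl1, and the part of depth in this difference was not tested. Among neutrophils of suffix 1, 5 cells held 85 of the 150 Xcl1 UMIs, and 4 of the 5 had a UMI of those genes, against 2.23% of the neutrophils without Xcl1.

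Fasl followed a pattern like that of Xcl1, at a much lower level. Its level in NK_cell was 4.14 UMIs per 10000 (2.56 to 6.33) in suffix 1 and 7.23 (4.88 to 10.3) in suffix 2, from 21 and 30 UMIs. In CD8_Tex it was 0.818 (0.702 to 0.948) and 1.59 (1.33 to 1.89), from 177 and 126 UMIs. The intervals of the 2 names stayed apart in both suffixes, and NK_cell over CD8_Tex was a log2 ratio of 2.34 (1.61 to 3.0) and 2.18 (1.56 to 2.77). Against only the CD8_Tex cells without a UMI of the macrophage genes C1qa, C1qb and C1qc, described below, the ratio was 0.38 (-0.41 to 1.12) in suffix 1 and 1.48 (0.77 to 2.18) in suffix 2. NK_cell was also apart from its next lower name in both suffixes, CD4_Th with 1.05 (0.422 to 2.16) in suffix 1 and CD8_Tex in suffix 2. CD4_Th and CD8_Tex overlapped in suffix 1, and CD4_Th had 0 Fasl UMIs in suffix 2, which leaves room for a level up to 0.667.

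Against all other cells, Fasl in NK_cell had a log2 ratio of 5.26 (4.55 to 5.90) in suffix 1 and 5.26 (4.65 to 5.83) in suffix 2, the 7th and 4th highest of the genes measured. A Fasl UMI was present in 22.4% of NK_cell cells in suffix 1 and 35.8% in suffix 2, and in 22.4% and 28.5% of CD8_Tex cells, against 0.473% and 0.649% of neutrophils. At 500 UMIs per cell the shares were 19.0% and 35.3% in NK_cell, 7.63% and 10.3% in CD8_Tex and 0.137% and 0.256% in neutrophils. In cDC1_Clec9a and cDC2_Cd209a, Fasl had 0 UMIs in both suffixes.

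Cst7 was spread over more lymphocyte names than Xcl1 or Fasl, and over cDC1_Clec9a. In suffix 1 it stood at 3.94 (2.41 to 6.09) in NK_cell, 2.02 (1.84 to 2.22) in CD8_Tex, 3.15 (2.43 to 4.03) in CD4_Treg (regulatory) and 2.70 (1.60 to 4.27) in CD4_Th. In suffix 2 it stood at 2.65 (1.32 to 4.74) in NK_cell, 3.67 (3.26 to 4.12) in CD8_Tex, 3.38 (2.25 to 4.89) in CD4_Treg and 3.46 (1.98 to 5.63) in CD4_Tfh. Neighbouring names overlapped, and the highest name changed between suffixes. NK_cell over CD8_Tex was a log2 ratio of 0.97 (0.24 to 1.61) in suffix 1 and -0.47 (-1.49 to 0.39) in suffix 2. Against only the CD8_Tex cells without C1q UMIs it was -0.97 (-1.72 to -0.29) in suffix 1 and -1.12 (-2.16 to -0.21) in suffix 2, lower in NK_cell in both. CD4_Treg over CD4_Tn was a log2 ratio of 3.76 (2.64 to 5.14) in suffix 1, where CD4_Tn had 7 Cst7 UMIs, and 1.58 (0.06 to 3.55) in suffix 2, where it had 4.

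The cells named cDC1_Clec9a had a Cst7 level of 1.45 (1.20 to 1.74) in suffix 1 and 1.36 (1.14 to 1.62) in suffix 2. A UMI was present in 40.6% and 39.5% of its cells, which were deep, with medians of 4857 and 6220 UMIs. The level lay above that of neutrophils, 0.0565 (0.0432 to 0.0726) and 0.0308 (0.0100 to 0.0720), in both suffixes. Cst7 stood at 1.45 and 0.453 in cDC2_Cd209a, and at 0.582 and 1.00 in the plasmacytoid name, pDC. Against all other cells, Cst7 in NK_cell had a log2 ratio of 3.41 (2.69 to 4.04) in suffix 1 and 1.83 (0.82 to 2.68) in suffix 2, ranks 60 and 235.

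A Cst7 UMI was present in 20.7% of NK_cell cells in suffix 1 and 17.0% in suffix 2, and in 34.9% and 50.6% of CD8_Tex cells, which have higher UMI totals. At 500 UMIs per cell the shares were 16.7% and 8.82% in NK_cell and 12.9% and 20.9% in CD8_Tex, from 7 and 3 NK_cell cells. The order of these thinned shares differed between the suffixes.

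Runx3 had the broadest distribution. Its level was 29.4 UMIs per 10000 (24.9 to 34.5) in NK_cell of suffix 1 and 26.3 (21.6 to 31.7) in suffix 2. This was the highest of the names with 20 or more cells in both, with an interval above that of the next name. In suffix 2, 32 of the 109 Runx3 UMIs of NK_cell were in 1 cell. Without its highest cell, NK_cell stood at 26.4 in suffix 1 and 19.7 in suffix 2. The next name of suffix 2, cDC2_Cd209a, stood at 16.1 without its own highest cell. The 19.7 lay within the full interval of cDC2_Cd209a, 14.6 to 20.2. In CD8_Tex the Runx3 level was 12.5 (12.1 to 13) and 15.2 (14.3 to 16.1). Myeloid names reached similar levels: Macro_Ccl12 stood at 16.1 and 12.1, Mono_Ly6c2 at 13.6 and 14.7 and Macro_Vegfa at 12.1 in both suffixes. The macrophage and monocyte names described here ran between 6.45 and 16.1 in suffix 1, a range that holds the CD8_Tex level; in suffix 2 CD8_Tex stood above the highest of them, Mono_Ly6c2, with overlapping intervals. In suffix 1 CD4 names ran between 5.80 in CD4_Tcm (central memory) and 14.9 in CD4_Tn.

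The lowest Runx3 levels were in neutrophils, with 0.377 and 0.802, epithelial cells, with 0.748 and 0.622, and fibroblasts, with 1.09 and 0.323. In cDC1_Clec9a Runx3 stood at 1.97 (1.67 to 2.29) and 1.79, and in cDC2_Cd209a at 13.7 (12.4 to 15.0) and 17.2. NK_cell over all other cells was a log2 ratio of 2.31 (2.07 to 2.54) and 1.91 (1.63 to 2.19), ranks 220 and 210. CD8_Tex over the CD4 names was a log2 ratio of 0.21 (0.10 to 0.32) in suffix 1 and 0.52 (0.33 to 0.71) in suffix 2, the smallest of the 4 members. Per cell rather than per 10000 UMIs, the order turned: NK_cell held 2.57 Runx3 UMIs per cell in suffix 1, CD8_Tex 5.15 and Macro_Mgl2, with deep cells, 6.30.

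In CD8_Tex against all other cells of suffix 1, log2 ratios were 4.60 (4.48 to 4.72) for Xcl1, 3.78 (3.47 to 4.10) for Fasl, 3.03 (2.85 to 3.20) for Cst7 and 1.21 (1.15 to 1.27) for Runx3. All 4 members were over 2-fold higher, where 14.7% of all genes were. In suffix 2, where 12.3% of genes were, the ratios were 2.76, 4.25, 3.0 and 1.28. Xcl1 ranked 1 of 3514 genes in suffix 1 and 33 of 3087 in suffix 2. The all-other cells hold NK_cell: with each of the other names weighted equally, CD8_Tex had log2 ratios of 0.82 for Xcl1, 1.19 for Fasl, 1.20 for Cst7 and 0.39 for Runx3.

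The CD8_Tex name held cells with macrophage transcripts, and Xcl1, Fasl and Cst7 were at lower levels in the cells with most of them. C1qa, C1qb and C1qc encode complement C1q, which macrophages make. In suffix 1, 106 CD8_Tex cells had 0 C1q UMIs, 168 had 1 to 4 and 253 had 5 or more, with median depths of 1169.5, 1616.5 and 5447 UMIs. Xcl1 stood at 24.9 (22.7 to 27.3), 22.5 (21.1 to 24.1) and 1.99 (1.78 to 2.22) in the 3 classes. Fasl stood at 3.17 (2.42 to 4.08), 1.74 (1.35 to 2.21) and 0.315 (0.233 to 0.415). Cst7 stood at 7.72 (6.52 to 9.08), 4.63 (3.97 to 5.36) and 0.711 (0.586 to 0.855). All 3 genes were lowest in the class of 5 or more, with intervals apart from the other classes. Runx3 moved least, with 16.1 (14.4 to 18.0), 13.2 (12 to 14.4) and 12 (11.4 to 12.5).

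Suffix 2 had the same lowest class, from 52 cells of 5 or more C1q UMIs beside 91 with 0 and 124 with 1 to 4. There Xcl1 was 13.3, 6.38 and 2.20 and Fasl 2.59, 2.62 and 0.338 in the 3 classes. Cst7 was 5.75, 5.89 and 1.02 and Runx3 18.0, 20.1 and 10.2. The summed level of Cd247, Cd2 and Lck moved in the same way, with 24.2, 23.5 and 6.68 in suffix 1. Shares of cells with a UMI did not all follow the levels. For Xcl1 they were 33.0%, 28.6% and 10.3% in suffix 1, but 16.5%, 21.0% and 17.3% in suffix 2. Runx3 was present in 75.5%, 72.0% and 93.3% in suffix 1 and in 84.6%, 89.5% and 92.3% in suffix 2. For Fasl and Cst7 the share was lowest in the class of 5 or more in both suffixes. Between 3 and 9 cells lay at 4 UMIs or at 5 UMIs, on either side of the class limit, in each suffix. No NK_cell cell had 5 or more C1q UMIs in either suffix.

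The macrophage markers, of which 5 of 7 were measured and none was at 0, summed to 215 UMIs per 10000 in CD8_Tex of suffix 1, against 112 in all other cells, and to 105 in suffix 2, against 107. In NK_cell they summed to 9.27 and 8.68, against 119 and 107. Their part in the CD8_Tex levels was not tested beyond the classes above. Set against the CD8_Tex cells with 0 C1q UMIs, NK_cell kept a higher Xcl1 level, at a log2 ratio of 1.80 (1.61 to 1.99) in suffix 1 and 3.04 (2.81 to 3.28) in suffix 2. For Fasl the ratio was 0.38 (-0.41 to 1.12) and 1.48 (0.77 to 2.18), so the difference was within counting error in suffix 1. For Cst7 it was -0.97 (-1.72 to -0.29) and -1.12 (-2.16 to -0.21), lower in NK_cell in both suffixes, and for Runx3 0.87 (0.57 to 1.15) and 0.54 (0.21 to 0.86). These ratios kept all NK_cell cells, of which 33 of 58 in suffix 1 and 25 of 53 in suffix 2 had 1 to 4 C1q UMIs. In NK_cell cells with 0 C1q UMIs, Xcl1 stood at 63.3 and 148 and Fasl at 6.76 (3.70 to 11.3) and 6.13. Cst7 stood there at 4.83 and 2.56, and Runx3 at 36.7 and 15.8 (10.8 to 22.5). That Runx3 level in suffix 2 was below the 18.0 (16.1 to 20.2) of CD8_Tex cells with 0, with overlapping intervals.

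**Figure D3:**
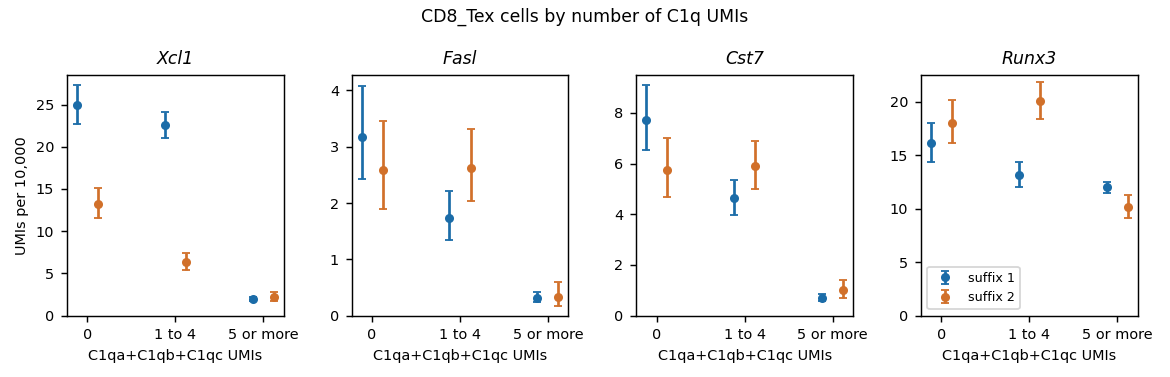
Level of each member, in UMIs per 10000, in CD8_Tex cells with 0, 1 to 4 and 5 or more C1q UMIs, in suffix 1 and suffix 2, with exact Poisson 95% intervals. Xcl1, Fasl and Cst7 are lowest in the class with 5 or more (1.99, 0.315 and 0.711 in suffix 1), and Runx3 differs least in suffix 1.

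The members were found together in single cells to different degrees. In suffix 1, 10, 17, 16, 14 and 1 of the 58 NK_cell cells had UMIs of 0, 1, 2, 3 and 4 members, and in suffix 2, 10, 9, 19, 13 and 2 of 53. In CD8_Tex it was 51, 236, 132, 84 and 24 of 527 and 19, 85, 93, 54 and 16 of 267. CD8_Tex cells with an Xcl1 UMI also had a Fasl UMI in 42.2% of 109 cells in suffix 1, against 17.2% of the 418 without Xcl1. In suffix 2 it was 54.0% of 50, against 22.6% of 217. Median UMIs were 2144 and 1905 in the cells with Xcl1, against 3562.5 and 1930. Cst7 was present in 57.8% of the CD8_Tex cells with Xcl1 in suffix 1, against 28.9% without, and in 58.0% in suffix 2, against 48.8%.

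These shares mix CD8_Tex cells of different C1q classes. Within the cells with 0 C1q UMIs, Fasl was present in 17 of 35 cells with Xcl1 (48.6%, 31.4 to 66.0) and in 18 of 71 without (25.4%, 15.8 to 37.1) in suffix 1, and in 9 of 15 (60%, 32.3 to 83.7) and 20 of 76 (26.3%, 16.9 to 37.7) in suffix 2. For Cst7 the shares in that class were 57.1% and 45.1% in suffix 1 and 60% and 48.7% in suffix 2. In this class the cells with Xcl1 were deeper, with medians of 1402 and 1841 UMIs, against 1066 and 1381.5 in those without. The intervals for Fasl overlapped there in both suffixes. With 1 to 4 C1q UMIs, the Fasl shares with and without Xcl1 were 37.5% and 26.7% in suffix 1, with overlapping intervals. In suffix 2 the intervals were apart, at 57.7% (36.9 to 76.6) and 25.5% (17.2 to 35.3), with medians of 1509 and 1710 UMIs. With 5 or more they were apart in suffix 1, at 42.3% (23.4 to 63.1) and 9.69% (6.17 to 14.3). In suffix 2 they overlapped, at 33.3% of 9 and 9.30% of 43 cells. In the class of 5 or more C1q UMIs of suffix 1, Cst7 was present in 69.2% of 26 cells with Xcl1 (48.2 to 85.7) and in 17.2% of 227 without (12.5 to 22.7), with medians of 6404.5 and 5328 UMIs. The part of depth was not tested.

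In NK_cell, Fasl was present in 31.0% of the 29 cells with Xcl1 and in 13.8% of the 29 without in suffix 1, and in 37.5% of 32 and 33.3% of 21 in suffix 2. Here the cells with Xcl1 were deeper, with medians of 861 and 746 UMIs against 583 and 388, and the part of depth was not tested. Runx3 was present in 75.9% of NK_cell cells with Xcl1 and 65.5% of those without in suffix 1, and in 78.1% and 42.9% in suffix 2.

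The lists below give the genes of related pathways, measured in the same cells. Of the cytotoxic effectors, 4 of 23 were measured, the fourth beside Xcl1, Fasl and Cst7 being Tnfsf10, which encodes the death ligand TRAIL. Tnfsf10 stood at 2.96 in NK_cell, against 0.172 in all other cells of suffix 1, and at 1.69, against 0.247, in suffix 2, and its highest name in suffix 1 was CD4_Th with 3.15. All 4 were over 2-fold higher in NK_cell and in CD8_Tex, in both suffixes. Of all genes, 25.9% and 22.1% were higher in NK_cell, and 14.7% and 12.3% in CD8_Tex. As 3 of the 4 are the members themselves, the list adds only Tnfsf10 to their values.

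Of the natural killer and T cell receptors and adaptors, 13 of 29 were measured. In NK_cell 11 were over 2-fold higher and 1 lower in suffix 1, and 10 higher and 1 lower in suffix 2. Of all genes, 25.9% and 22.1% were over 2-fold higher in NK_cell, and 7.71% and 9.62% lower. The median log2 ratio of the 13 in NK_cell was 2.39 in suffix 1 and 1.68 in suffix 2. The medians over all genes were 0.16 and 0.08, or 0.97 and 0.67 with genes without NK_cell UMIs put at 3 counts. The subunits of the interleukin 18 receptor were among the higher ones: Il18r1 stood at 13.6 in NK_cell of suffix 1, against 0.458 in all other cells, and Il18rap at 9.86, against 1.17. Cd160 stood at 4.14, against 0.0674. The gene that was lower was Fcgr3, an Fc receptor with high myeloid expression, at 3.16 in NK_cell and 16.7 in all other cells. In CD8_Tex 6 of the 13 were over 2-fold higher in suffix 1 and 9 in suffix 2, and 0 lower. Of all genes, 14.7% and 12.3% were higher in CD8_Tex, and 9.59% and 12.6% lower. Il18rap stood at 1.15 in CD8_Tex, against 1.19 in all other cells of suffix 1, and at 1.63, against 0.738, in suffix 2, where its log2 ratio was 1.14 (0.85 to 1.42).

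Of the transcription factors, 10 of 22 were measured, and in suffix 1 6 of them were over 2-fold higher in NK_cell and 1 lower, as were 6 and 1 of the 9 with enough UMIs in suffix 2. Of all genes, 25.9% and 22.1% were over 2-fold higher in NK_cell in suffix 1 and suffix 2, and 7.71% and 9.62% lower. The count of 1 lower is near those shares. Beside Runx3, Stat4, which carries interleukin 12 signals, stood at 4.73 in NK_cell, against 0.345, and Gata3, a factor of T and innate lymphoid cells, at 5.52, against 0.660. Zeb2, a factor of natural killer maturation that is also high in monocytes, was the lower one, at 4.54, against 10.9. In CD8_Tex 7 were over 2-fold higher and 0 lower in suffix 1, and 6 higher and 1 lower in suffix 2. Of all genes, 14.7% and 12.3% were higher in CD8_Tex and 9.59% and 12.6% lower, and the counts of lower genes are near those shares. Among the higher ones of the list in suffix 1 were Tox, a factor of T cell exhaustion, at 1.52, against 0.252, and Ikzf2, which encodes Helios, at 8.49, against 1.11. Tox2 had 0 UMIs in NK_cell of suffix 1, at 0.0237 in the other cells, too few to tell.

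Fasl acts through a death receptor pathway, of which 11 of 19 genes were measured. In NK_cell of suffix 1, 4 were over 2-fold higher and 2 lower, and in suffix 2, 3 were higher and 1 lower. The background shares of higher genes, 25.9% and 22.1%, are near the counts of higher genes, so these are not a result about the list. Of all genes, 7.71% and 9.62% were lower in NK_cell, and the 2 and 1 lower genes are too few to tell. Bcl2, which blocks mitochondrial apoptosis, stood at 19.7 in NK_cell, against 1.23 in all other cells of suffix 1, and at 14, against 0.977, in suffix 2. Mcl1, another survival factor of that family, was lower, at 16.8, against 51.5. Casp8, the caspase that Fas recruits, stood at 3.55, against 1.93, which is less than 2-fold. In CD8_Tex 3 of the 11, Fasl, Tnfsf10 and Bcl2, were over 2-fold higher and 0 lower in both suffixes. Of all genes, 14.7% and 12.3% were higher in CD8_Tex, and 9.59% and 12.6% lower.

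The targets of cystatin F are cathepsins, and 6 of 16 cystatins and cathepsins were measured. Only Cst7 was over 2-fold higher in NK_cell, and the other 5 were lower in both suffixes, where 7.71% and 9.62% of all genes were lower. As 25.9% and 22.1% of all genes were higher, the count of 1 higher gene is not a result about the list. Cst3, the widely expressed cystatin C, stood at 12.8 in NK_cell, against 67.8 in all other cells of suffix 1, and Ctss, a cathepsin of antigen-presenting cells, at 3.94, against 34.6. In CD8_Tex, Cst7 was again the 1 gene over 2-fold higher, where 14.7% and 12.3% of all genes were higher and 9.59% and 12.6% lower. Ctsk was lower in both suffixes, at 0.985, against 20.8, in suffix 1. Of the Xcl1 axis list, 2 of 10 genes were measured. The second, Batf3, had 0 UMIs in NK_cell of suffix 1, and its highest level there was the 9.02 in cDC1_Ccl22. Xcr1, the receptor of Xcl1, was not analysed here.

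**Figure D4:**
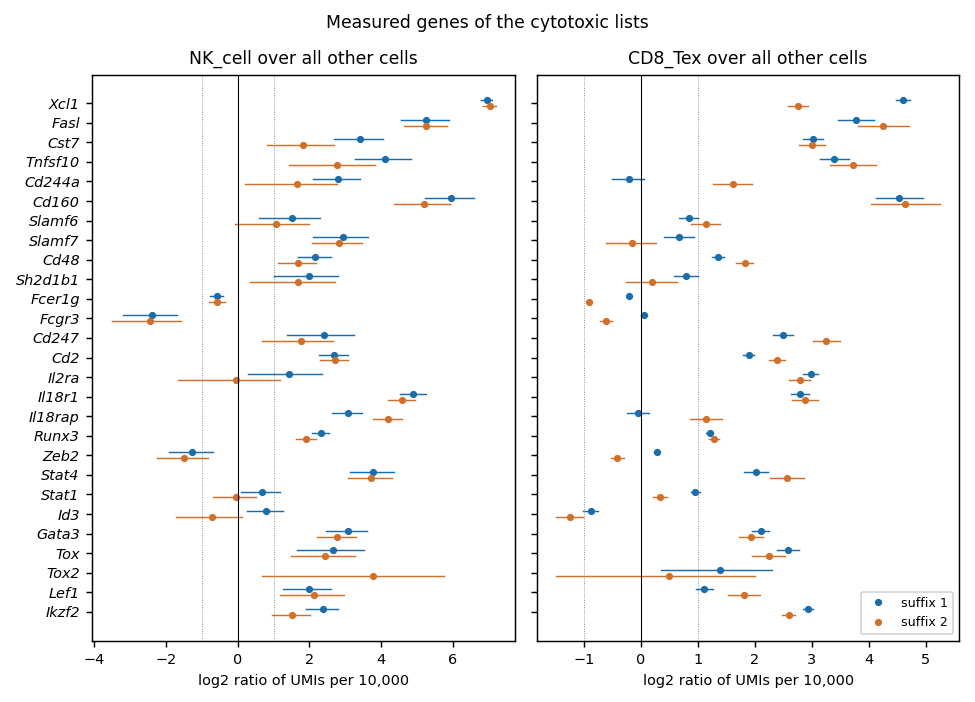
Log2 ratio of UMIs per 10000 over all other cells, with exact 95% intervals, for NK_cell (left) and CD8_Tex (right) and the measured genes of the lists of effectors, receptors and transcription factors, in suffix 1 and suffix 2; dotted lines mark 2-fold, and a gene with 0 UMIs in the name has no point. Xcl1 has the highest ratio in NK_cell, 6.94 and 7.03, and Fcgr3 and Zeb2 lie below -1 there.

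Across cell type names, the members fell into a close pair and 2 genes apart. Pearson's r of log2(UMIs per 10000 + 1) between Xcl1 and Fasl was 0.95 over 23 names in suffix 1 and 0.92 over 22 names in suffix 2. Between Xcl1 and Cst7 it was 0.70 and 0.60, and between Xcl1 and Runx3 0.44 and 0.44. The names of a suffix share a library and its depth, and NK_cell alone lies far from the rest, so these values carry no p. Cd160 was the most alike to Fasl of 3514 genes, with 0.97 and 0.98, and came after Fasl for Xcl1, with 0.95 and 0.89. Qrfp, with 0.89 and 0.86, and Cited4, with 0.88 and 0.82, came next for Xcl1, followed by 2010300C02Rik, with 0.88 and 0.78. The third gene for Fasl, Gm14029, had 0.95 in suffix 1 and 0.05 in suffix 2, so its likeness was not seen again.

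Genes most alike to Cst7 were Abca2, a lipid transporter, with 0.88 and 0.76, Sla2, an adaptor that dampens antigen receptor signals, with 0.85 and 0.86, Pdcd1, which encodes the inhibitory receptor PD-1, with 0.82 and 0.71, Il18r1, with 0.82 and 0.68, and C230024C17Rik, with 0.81 and 0.76. For Runx3 they were Rgs2, a regulator of G protein signalling, with 0.89 and 0.85, the nuclear receptor Nr4a2, with 0.83 and 0.76, the phosphodiesterase Pde4b, with 0.83 and 0.76, Cd48, with 0.80 and 0.83, and the phosphatase Ptpn18, with 0.80 and 0.82.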

How the data were processed

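CD45-positive, propidium iodide-negative cells from tumours of 4T1 cells were sequenced with 10x Genomics libraries, per the labels' protocols. Per the submitters' processing notes, Cell Ranger, Seurat and the build GRCm38 (mm10) were used; which step each served, their versions, any filter or removal of doublets and how cells were named is not given in the sources used here. No doublet caller was run. The deposited table gives a UMI count for each gene in each cell, and 4099 complete gene rows were used, so UMI totals cover part of a cell's transcripts. Cell type names are text labels deposited by the authors; results of 1 name are not reported here, though its cells stay in all sums.

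For each name and suffix, UMIs were summed over cells and expressed per 10000 counted UMIs, in Python 3.11.15 with numpy 2.4.6 and scipy 1.17.1. Intervals are exact Poisson for levels, exact Clopper-Pearson for shares of cells and exact conditional binomial for ratios, at 95%; they cover counting error only. No p-value was computed, since cells are no replicates. A gene counted as over 2-fold higher or lower by its point ratio, with 50 or more UMIs on both sides together and a side with 0 UMIs put at 3 counts. The ratio step was tested on simulated Poisson counts, without spread between cells. In NK_cell, 80% of genes set 3-fold higher and 95% of those set 6-fold higher were called, and in CD8_Tex 99% and 100%. Of the unchanged genes, 10.0% were called higher in NK_cell and 0.304% in CD8_Tex. The planned test between groups was not run, since no label assigns a suffix to a library.

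The members, gene lists and markers were chosen with earlier results of these data known. Named genes were the members, the 5 genes most alike to each, the 5 with the highest NK_cell ratio, and examples from the lists and markers, some chosen after their values were seen. Alternatives were suffix 2, other denominators, cell filters, equal weighting of names, thinning, another pseudocount and no UMI minimum. Leaving out the cell with the most UMIs in each name, and the alternatives for pairs of names, were added after the data were seen.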

Additional observations from a re-analysis of the deposited data

How the results depend on the processing

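The 8 log2 ratios of NK_cell and CD8_Tex to all other cells stayed above 0 under every alternative run for them. For Xcl1, Fasl, Cst7 and Runx3 in that order, the suffix 1 values were 6.94, 5.26, 3.41 and 2.31 in NK_cell and 4.60, 3.78, 3.03 and 1.21 in CD8_Tex. Changes within the counting interval are not listed.
In suffix 2, NK_cell had 1.83 for Cst7 and 1.91 for Runx3, and CD8_Tex 2.76 for Xcl1, 4.25 for Fasl and 1.28 for Runx3. Without S100a8 and S100a9 in the denominator, NK_cell had 6.56 for Xcl1 and 1.92 for Runx3, and CD8_Tex 4.21, 3.40, 2.64 and 0.82. With UMIs per cell, NK_cell had 5.58, 3.89, 2.04 and 0.95, and CD8_Tex 5.52, 4.70, 3.95 and 2.13. Without T and natural killer cells of 5 or more C1q UMIs, NK_cell had 7.10 for Xcl1, and CD8_Tex 6.21, 5.22, 4.51 and 1.38. With names weighted equally, NK_cell had 4.31 for Fasl, 2.32 for Cst7 and 1.74 for Runx3, and CD8_Tex 0.82, 1.19, 1.20 and 0.39. Without the cell with the most UMIs in each name, CD8_Tex had 4.82 for Xcl1 and 4.18 for Fasl.
The name with the highest Cst7 level was NK_cell with 3.94 in suffix 1. It was CD8_Tex with 3.67 in suffix 2, with 0.829 UMIs per cell and, without the C1q cells, with 5.65, and CD4_Treg with 3.02 without the highest cells. The highest name of Runx3 per cell was Macro_Mgl2 with 6.30. Keeping only cells with 500 or more UMIs moved 0 of 12 results beyond their counting interval. Without the UMI minimum, 962 genes were over 2-fold higher in NK_cell, against 911 with it, and 271 were lower in both. In CD8_Tex 657 were higher, against 516, and 389 lower, against 337.
Of the pairs, NK_cell over CD8_Tex was 3.50, 2.34, 0.97 and 1.23 in suffix 1. In suffix 2, 3 of the 4 lay outside the suffix 1 counting interval, with 4.18 for Xcl1, -0.47 for Cst7 and 0.79 for Runx3. The intervals of the 2 suffixes were apart for Xcl1 only, and that of Cst7 in suffix 2 (-1.49 to 0.39) held 0. With UMIs per cell the 4 ratios were 1.27, 0.11, -1.27 and -1.0. Against CD8_Tex cells with 0 C1q UMIs they were 1.80, 0.38, -0.97 and 0.87. The point value of Cst7 thus fell below 0 under all 3, and that of Runx3 per cell. CD8_Tex over the CD4 names was 3.74, 1.16, 0.58 and 0.21. It was 2.17 for Xcl1, 2.61 for Fasl and 0.52 for Runx3 in suffix 2, 6.21, 3.64, 3.05 and 2.69 per cell, and 5.44, 3.11, 2.51 and 0.58 from CD8_Tex cells with 0 C1q UMIs. CD4_Treg over CD4_Tn was 2.57 for Xcl1 and -0.77 for Runx3 in suffix 1. In suffix 2 it was -1.01 for Xcl1, 1.58 for Cst7 and -0.45 for Runx3, and per cell -0.27 for Runx3.
The causes of these changes were not tested. With the pseudocount at 0.1, 3, 4, 2 and 4 of the 5 genes most alike to the 4 members were the same. No paired analysis was possible because the cells carry a suffix that no label ties to a library or replicate number. The 58 and 53 NK_cell cells limit Fasl and Cst7, which rest on 11 to 30 UMIs there.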
